A study of Mus musculus with 2 samples.

Results

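The genes described here encode the proteins that bind peptides inside the cell and show them to T cells: the major histocompatibility complex (MHC, named H2 in the mouse) and the machinery that loads it. They were taken from the count table by name, as every gene whose symbol starts with H2- together with B2m, Tap1, Tap2, Tapbp, Tapbpl, Erap1, Nlrc5, Ciita, Cd74 and Cd1d1. This gave 44 genes of the 31017 in the table, 37 of them on chromosome 17. The samples were 2 libraries of untreated TUBO cells grown flat on plastic in DMEM/F12 medium with serum, and they form 1 group, so levels are described and no condition is compared with another. TUBO is an established mammary cancer line from a BALB/c mouse that carried the rat Her2/neu transgene. Every value therefore comes from 1 line of 1 strain, and no label says whether each replicate was a culture of its own.

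MHC class I molecules pair a heavy chain with beta-2-microglobulin (B2m) and carry peptides cut by the proteasome, pumped into the endoplasmic reticulum by TAP (Tap1 and Tap2), trimmed by Erap1 and fitted with the help of tapasin (Tapbp). Class II molecules, which are normally restricted to antigen-presenting cells and can be induced in epithelium by interferon gamma, carry peptides from the endosome with the help of the invariant chain (Cd74) and H2-DM. NLRC5 is the transactivator of class I genes and CIITA that of class II genes. Both act through the enhanceosome, a complex of RFX, CREB-family and NF-Y proteins on the X and Y boxes of the promoter.

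The promoters of 2 class I genes that were well expressed and of 2 class II genes without a count are shown first, because class I and class II genes share part of this wiring and differ in the rest. Each is the stretch of 200 bases before the gene's start in RefSeq (build GRCm38.p6), and capitals mark the motifs searched: the NF-kB site of enhancer A (GGGATTCCC), interferon response elements (GAAANNGAA, or GAANNGAAA for the class I form), the X1 box core (AACNGATG), the X2 site (TGACG) and the Y box (ATTGG), on either strand. The sequences run 5′ to 3′ on the gene's own strand. H2-K1 is at chr17:34000348-34000547 (minus strand), B2m at chr2:122147487-122147686 (plus), H2-Eb1 at chr17:34305667-34305866 (plus) and H2-Aa at chr17:34287824-34288023 (minus).
H2-K1: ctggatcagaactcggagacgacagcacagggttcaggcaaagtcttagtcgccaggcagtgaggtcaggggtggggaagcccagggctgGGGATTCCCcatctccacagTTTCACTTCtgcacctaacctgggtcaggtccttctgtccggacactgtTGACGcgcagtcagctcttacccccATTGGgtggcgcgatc
B2m: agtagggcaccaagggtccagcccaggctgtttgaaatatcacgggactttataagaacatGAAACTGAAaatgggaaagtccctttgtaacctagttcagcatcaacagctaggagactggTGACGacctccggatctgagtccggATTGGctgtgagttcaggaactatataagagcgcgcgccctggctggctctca
H2-Eb1: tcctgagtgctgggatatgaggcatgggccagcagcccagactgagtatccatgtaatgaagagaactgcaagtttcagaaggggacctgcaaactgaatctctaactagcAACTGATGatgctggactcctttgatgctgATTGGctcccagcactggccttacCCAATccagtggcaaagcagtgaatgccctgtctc
H2-Aa: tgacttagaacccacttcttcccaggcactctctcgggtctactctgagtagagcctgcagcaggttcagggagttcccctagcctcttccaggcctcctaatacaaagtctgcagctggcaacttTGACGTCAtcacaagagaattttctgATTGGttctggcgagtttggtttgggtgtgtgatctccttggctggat
H2-K1 and B2m are the expressed pair, and H2-Eb1 and H2-Aa the pair without a count. An X2 site and a Y box stand in the promoters of H2-K1 and B2m and in that of the silent H2-Aa.

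Among class I heavy chains, the stretch that holds enhancer A and the interferon element can be laid side by side over 30 bases. The 6 genes of the K, D and Q regions that hold this interferon element are shown.
H2-K1: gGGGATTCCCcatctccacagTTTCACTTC
H2-D1: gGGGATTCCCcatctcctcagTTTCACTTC
H2-Q6: gGGGATTCCCcatctccccagTTTCACTTC
H2-Q4: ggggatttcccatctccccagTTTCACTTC
H2-Q7: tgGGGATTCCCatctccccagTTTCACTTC
H2-Q10: gaggactccccatctccccagTTTCACTTC
H2-D1 and H2-Q6 each differed from H2-K1 at 1 of the 30 positions, H2-Q4 at 2, H2-Q10 at 3 and H2-Q7 at 5, compared base by base without gaps. In H2-Q7 the NF-kB match starts 1 base later. H2-M3 and H2-M2 hold the interferon element too and differed at 16 and 15 positions. The printed stretches lie on the plus strand at chr17:35262923-35262952 (H2-D1), chr17:35424677-35424706 (H2-Q6), chr17:35379443-35379472 (H2-Q4), chr17:35439021-35439050 (H2-Q7) and chr17:35469913-35469942 (H2-Q10), and on the minus strand at chr17:34000429-34000458 (H2-K1). The cells come from BALB/c, whose H2 haplotype differs from that of the reference strain, so these are reference sequences and not those of TUBO.

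The classical class I chains and their light chain were expressed, while class II was almost silent. A gene is called detected at 1 CPM (counts scaled to the library size) or more in both libraries. By this measure 19 of the 44 genes were detected, against 37.7% of all genes in the table. No count in either library was found for 18 of the 44, and for 12710 of the 31017 genes in the table, a like share. The median over the 44 members was 0.274 CPM, against 0.0730 CPM over all genes in the table. For a gene without counts the level may still reach 0.0842 CPM in replicate 1, and 0.0885 CPM in replicate 2, allowing for counting error only. The replicates held 35453278 and 34098259 counts. In bulk RNA, fewer cells that express a gene and less RNA per cell cannot be told apart.

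**Figure D1:**
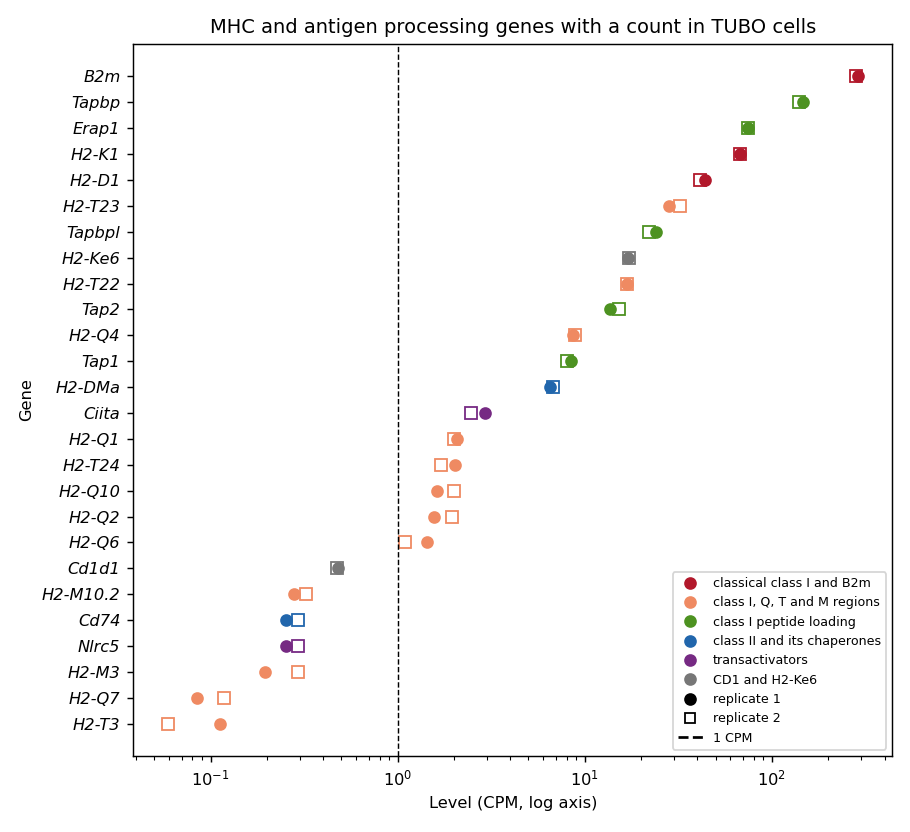
Level of each of the 26 members with a count, in CPM on a log axis, with filled circles for replicate 1 and open squares for replicate 2 and the colour giving the role. The 19 detected genes lie to the right of the dashed line at 1 CPM, from B2m at 285 CPM down to H2-Q6 at 1.26 CPM, and the 2 libraries nearly coincide for most of them.

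B2m, the light chain of all class I molecules (chromosome 2, 122147686 to 122153083, GRCm38), stood at 288 CPM in replicate 1 and 283 CPM in replicate 2, or 285 ± 3.89 CPM (SD, n = 2). H2-K1, a classical heavy chain gene (chromosome 17, 33996017 to 34000347), was at 67.8 and 67.4 CPM. H2-D1, the other classical heavy chain gene (chromosome 17, 35262730 to 35267499), was at 43.9 and 41.5 CPM. For all 3 genes the value in replicate 1 was slightly the higher, by no more than counting error allows.

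Levels of different genes are compared here per kilobase of exon, as CPM per kb, to allow for gene length. B2m was at 332 ± 4.52 CPM per kb, above 99.5% of the detected genes. H2-K1 followed at 23 ± 0.104 CPM per kb and H2-D1 at 16.5 ± 0.664 CPM per kb, above 82.5% and 74.4% of them. On this scale B2m was 14.4 ± 0.131 times as abundant as H2-K1 and 20.1 ± 0.532 times as abundant as H2-D1. These errors cover the libraries only. With the length of the longest transcript H2-K1 was at 36.1 CPM per kb. B2m was then 9.20 times as abundant as H2-K1 and 16.4 times as abundant as H2-D1. H2-K1 exceeded H2-D1 by 1.39 ± 0.0495 times, and by 1.78 times with the longest transcript. Reads from polymorphic or near-identical heavy chain genes can be lost or misplaced, and of all 50-base windows in the transcripts 9.63% for H2-K1 and 12.8% for H2-D1 also occur in transcripts of other genes. B2m shares none. BALB/c also carries H2-L, a classical gene without a place in the reference genome, which was not analysed here. With length counted only where the sequence is unique, and all counts kept, H2-K1 stood at 25.5 and H2-D1 at 19 CPM per kb. Such values are too high if reads of shared sequence were counted. The part of H2-L or of misplaced reads in these levels was not tested.

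Nonclassical class I genes, whose products present narrower sets of ligands or inform natural killer cells, ranged from below the level of the classical genes to no count. Of the 22 genes of the Q, T and M regions 8 were detected and 10 had no count. H2-T23, the gene of Qa-1, which presents signal peptides of other class I chains to the NKG2A receptor, led them with 28.2 CPM in replicate 1 and 32.1 CPM in replicate 2. Per kilobase it reached 0.632 ± 0.0824 times the level of H2-D1. H2-T22, whose product is a ligand of gamma-delta T cells, followed at 16.8 CPM in each library. H2-Q4 was at 8.70 and 8.90 CPM.

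The remaining detected genes of these regions were low. H2-Q1, H2-T24, H2-Q10, H2-Q2 and H2-Q6 had means between 1.26 and 2.04 CPM, which are 37 to 74 counts a library. H2-Q10 encodes a class I chain secreted mainly by liver. H2-Q7, of the Qa-2 group, had 3 and 4 counts and H2-T3, the thymus leukaemia antigen gene, 4 and 2. Both are below the detection minimum by a wide margin.

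Some genes of the Q and T regions share much of their sequence with other genes. H2-T22 shared 34.5% of its windows, 31.2% with H2-T10 alone, which was not analysed here. H2-Q6 shared 32% and H2-Q4 21.8%, while H2-T24 shared 3.17%. With length counted only where the sequence is unique, and all counts kept, H2-T22 rose from 4.92 to 7.52 CPM per kb and H2-Q6 from 0.605 to 0.889. The levels of the low Q genes are therefore uncertain.

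Among the raw counts of the class I heavy chain genes with the H2- prefix, H2-K1 and H2-D1 took 63.9% in replicate 1 and 61.8% in replicate 2. These shares are not corrected for length and leave out class I-like genes of other names. H2-T23 took 16.1% and 18.2%, H2-T22 9.63% and 9.52%, and H2-Q4 4.97% and 5.06%. Per kilobase, H2-K1 was 2.21 ± 0.210 times as abundant as H2-T23, and 3.17 times with the longest transcript. H2-T23 in turn exceeded H2-T22 by 2.12 ± 0.197 times, and by 1.61 times with length counted only where the sequence is unique.

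The M region was nearly silent. Of its 12 genes 10 had no count, and none was detected. H2-M10.2, one of a family known from vomeronasal neurons, had 10 and 11 counts, and shared 12.4% of its windows with other genes. H2-M3, which presents formylated peptides, had 7 and 10.

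**Figure D2:**
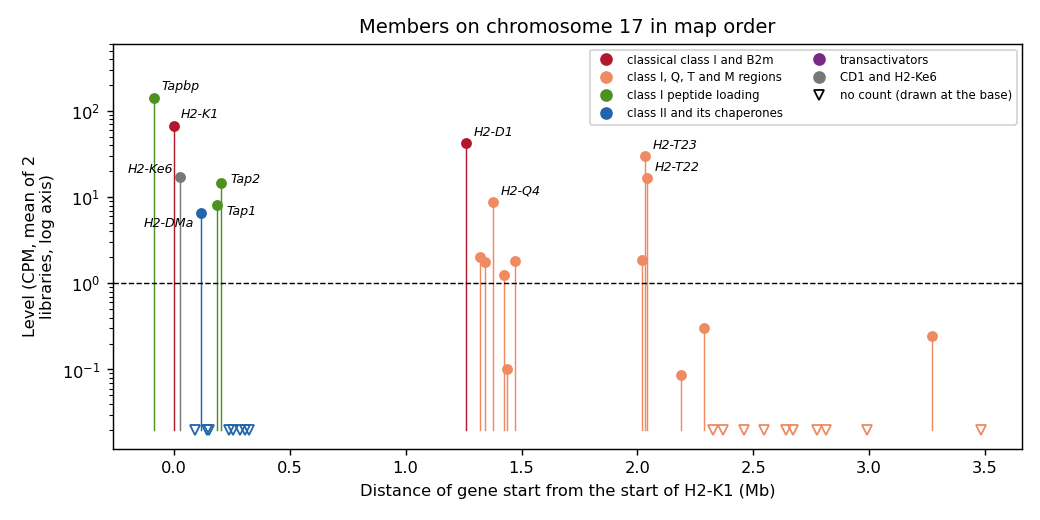
Mean level in CPM (log axis) of the 37 members on chromosome 17 against the distance of the gene start from that of H2-K1, with open triangles for genes without a count. The class II genes form a run of triangles between Tap2 and H2-D1 and near H2-DMa, and the M region a second run at the far end.

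Expressed and silent genes alternated along part of the locus. The 37 genes on chromosome 17 span 3568 kb, and 15 were detected, against 37.7% of all genes in the table. Silent class II genes lie among expressed ones: H2-DMa at 6.62 CPM starts 119 kb from H2-K1, H2-DMb2 and H2-DMb1 at 143 and 153 kb had no count, and Tap1 and Tap2 at 187 and 203 kb were detected again. H2-Ob, H2-Ab1, H2-Aa, H2-Eb1 and H2-Eb2, from 239 to 325 kb, had no count.

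All genes of the class I loading path were detected, at very unequal levels. Tapbp, the gene of tapasin, which bridges TAP and the empty class I molecule, was at 147 and 139 CPM. Erap1, the aminopeptidase that trims peptides to length, was at 74.6 and 74.2 CPM. Tapbpl, the gene of the tapasin-related peptide editor TAPBPR, was at 23.9 and 21.9 CPM. Per kilobase these 3 stood at 39.4 ± 1.40, 10.2 ± 0.0399 and 9.73 ± 0.591 CPM per kb, above both transporter genes.

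Tap1 and Tap2 encode the subunits of the peptide transporter. Tap2 was at 13.7 CPM in replicate 1 and 15.3 CPM in replicate 2, and Tap1 at 8.42 and 8.02 CPM. Per kilobase Tap2 was 2.56 ± 0.284 times as abundant as Tap1, and 2.01 times with the longest transcript. Tapbp was 26.3 ± 0.0371 times as abundant as Tap1 and 4.05 ± 0.102 times as abundant as Tapbpl per kilobase. With the longest transcript these ratios were 23.5 and 5.07. Tap1, at 1.5 ± 0.0512 CPM per kb, lay above only 14.1% of the detected genes, and Tapbp above 91% of them.

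Exons of some of these genes overlap exons of neighbours on the other strand, and whether the counting used strand is not given in the sources used here. Erap1 shares 834 bases with the abundant Cast (213 CPM), and Tapbp shares 904 bases with Gm19412, which had 0 and 1 counts. On its own strand Tapbp shares 149 bases with Zbtb22 (33.3 CPM). The part of such reads in the Erap1 and Tapbp levels was not tested.

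**Figure D3:**
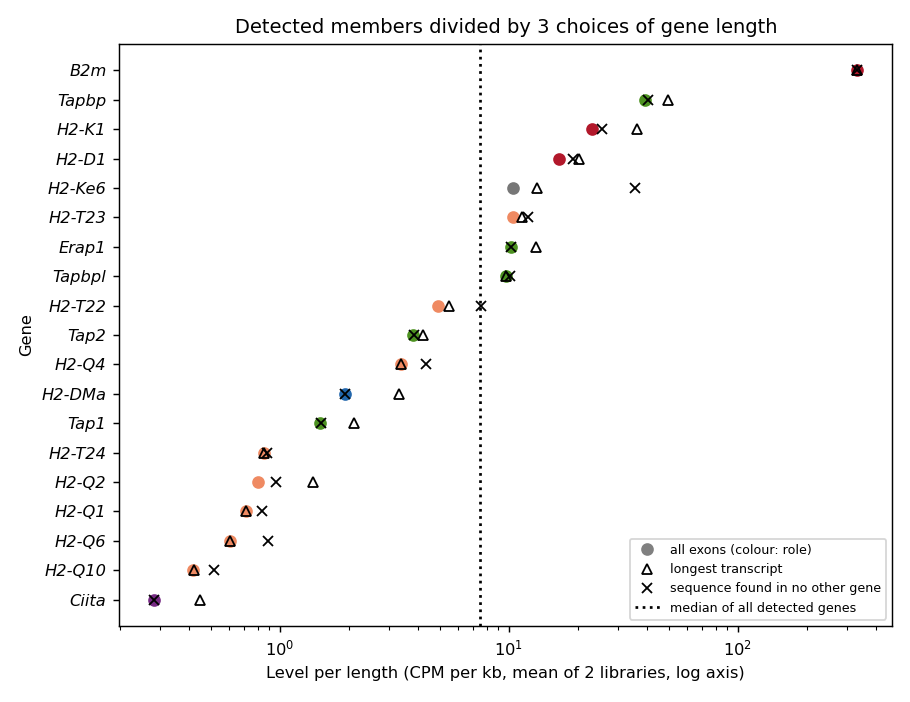
Mean level per kilobase (CPM per kb, log axis) of the 19 detected members, with length taken as all exons (filled circles), the longest transcript (open triangles) or the sequence found in no other gene (crosses). B2m and Tapbp lead under each choice, and H2-Ke6 moves most, from 10.4 to 35.4 CPM per kb.

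Per kilobase, 8 of the 19 detected members lay above the median of all detected genes (7.48 CPM per kb): B2m, Tapbp, H2-K1, H2-D1, H2-Ke6, H2-T23, Erap1 and Tapbpl. The last 4 of these lay between 9.73 and 10.4 CPM per kb. H2-T23, at 9.77 and 11.1 CPM per kb in the 2 libraries, overlapped the other 3 and cannot be ordered against them. H2-Ke6, which carries the H2 prefix but encodes a hydroxysteroid dehydrogenase and no MHC chain, was at 17.1 and 17.3 CPM. It shares 70.5% of its windows with Gm20427, a gene on the same strand not analysed here, so its level is uncertain.

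Class II was close to absent. The chain genes H2-Aa, H2-Ab1, H2-Eb1 and H2-Eb2 had no count in either library. Among the genes that serve class II, H2-DMb1, H2-DMb2, H2-Oa and H2-Ob had none, and Cd74, the invariant chain gene, had 9 and 10 counts. Over the 10 class II genes the median of log2(CPM + 1) was 0 in each library, and that of H2-K1 and H2-D1 was 5.80 and 5.75. The difference depends on the pseudocount of 1 CPM, because the class II median was 0.

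The exception was H2-DMa, one chain of the peptide editor H2-DM, at 6.48 CPM in replicate 1 and 6.75 CPM in replicate 2 (231 and 229 counts). Its partner genes H2-DMb1 and H2-DMb2 had no count. The pair share sequence with each other, 22.7% of the windows of H2-DMb1, and reads that match both may not have been counted. H2-DMb2 shared 24.8% of its windows with other genes. The remaining windows of both genes occur in no other gene, and no count fell there either. H2-DMa shares 360 exonic bases with Brd2 on the opposite strand, and Brd2 was at 335 CPM. The part of Brd2 reads in the H2-DMa level was not tested.

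The transactivators were low. Ciita had 104 and 84 counts, or 2.92 and 2.48 CPM, and was detected. Per kilobase it was at 0.283 ± 0.0327 CPM, above only 1.42% of the detected genes, and at 0.449 CPM per kb with the length of the longest transcript. It shares 329 exonic bases on the opposite strand with Dexi, which was at 9.73 CPM, and the part of Dexi reads in its level was not tested. Nlrc5, the class I transactivator, had 9 and 10 counts (0.252 and 0.295 CPM) and was not detected. Per kilobase Ciita was 8.89 ± 1.99 times as abundant as Nlrc5, a ratio that rests on 9 and 10 counts. With the longest transcript the ratio was 12.6.

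Cd1d1, which presents lipids to natural killer T cells, had 17 and 16 counts, 0.477 and 0.472 CPM. It shares 19.1% of its windows with Cd1d2, which was not analysed here.

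The proteins that sit on the X and Y boxes were all transcribed. All 7 genes of this list were detected: Creb1 at 108 ± 0.923 CPM, the NF-Y subunit genes Nfya at 88.7 ± 1.5, Nfyc at 33.3 ± 1.49 and Nfyb at 30.1 ± 2.07 CPM, and the RFX genes Rfx5 at 21.9 ± 0.850, Rfxank at 13.5 ± 0.480 and Rfxap at 12.8 ± 0.939 CPM (n = 2). The list median was 30.1 CPM. Per kilobase the lowest of them, Rfxank at 3.41 ± 0.121 CPM per kb, stood above Ciita and Nlrc5.

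The interferon gamma axis, the usual inducer of this module, was transcribed at moderate levels. Of the 9 genes of this list reported here 8 were detected, and their median was 35.8 CPM. Jak1 was at 89.2 ± 0.321 CPM, Jak2 at 75.5 ± 1.00 and the receptor chain genes Ifngr2 and Ifngr1 at 40.8 ± 0.394 and 35.8 ± 1.16 CPM. The factors that act on interferon elements followed, with Irf2 at 36.5 ± 0.890, Irf8 at 26.9 ± 0.944, Irf9 at 26.8 ± 0.0696 and Irf1 at 19.2 ± 1.18 CPM. Socs1, the feedback inhibitor of the axis, had 27 counts in each library and was not detected. NF-kB subunit genes were detected 5 of 5, from Relb at 22.8 ± 1.53 and Rel at 30.1 ± 0.447 CPM to Rela at 131 ± 4.2 and Nfkb1 at 142 ± 5.06 CPM.

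Proteasome genes were split. The constitutive catalytic subunit genes Psmb5, Psmb6 and Psmb7 stood between 47.3 and 100 CPM. Of their inducible counterparts, Psmb8 had 6 and 5 counts, Psmb9 7 and 6, and Psmb10 203 and 163 (5.25 ± 0.629 CPM). Per kilobase Psmb5 was 1131 ± 79.6 times as abundant as Psmb8, Psmb6 997 ± 78.5 times as abundant as Psmb9, and Psmb7 9.59 ± 0.908 times as abundant as Psmb10, where the first 2 ratios rest on 5 to 7 counts a library. These 2 also depend on the length used. With the longest transcript they were 638 and 1522, and the first was 2456 with unique sequence, since Psmb5 shares 54.1% of its windows with other genes. The genes of the PA28 activator, Psme1 (52.7 ± 0.898 CPM) and Psme2 (38.4 ± 2.02 CPM, with 28.3% of its windows shared with Psme2b), were detected, and Psme3, which encodes the nuclear activator, was at 183 ± 9.78 CPM.

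Psmb9 and Tap1 are neighbours transcribed away from each other, with only 225 bases between their RefSeq starts, and their levels differed. Tap1 had 300 and 272 counts against 7 and 6 for Psmb9. Per kilobase the ratio of Tap1 to Psmb9 was 28.6 in replicate 1 and 30.3 in replicate 2. An X2 site stands between the starts, at -86 from that of Tap1 and on the other strand at -144 from that of Psmb9. The annotated exons of the pair overlap by 212 bases.

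**Figure D4:**
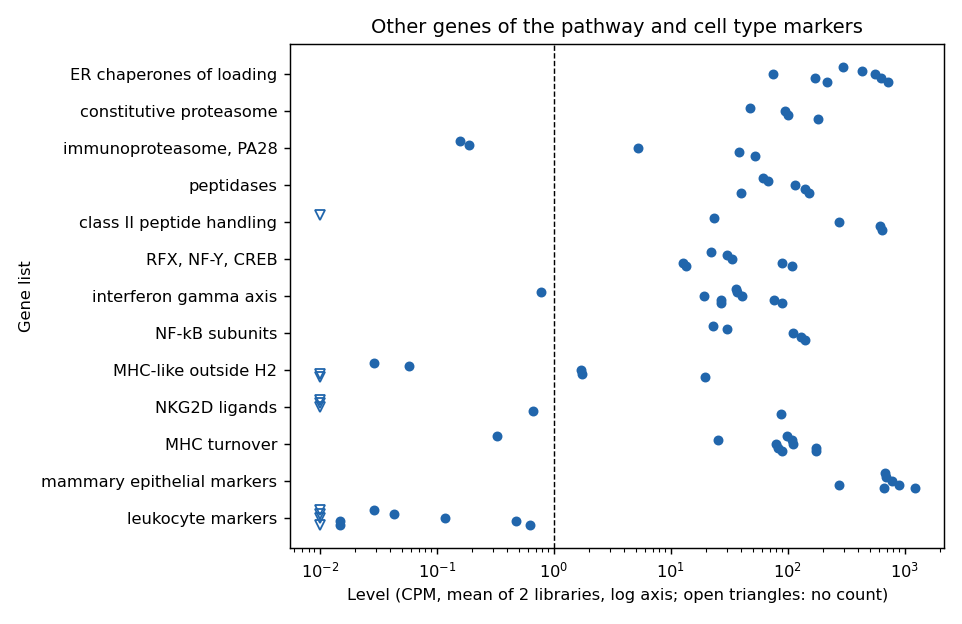
Mean CPM (log axis) of each gene of 13 lists, one list a row, with open triangles for genes without a count and a dashed line at 1 CPM. Chaperones, constitutive proteasome, RFX and NF-Y genes lie to the right of the line, the immunoproteasome list spans it, and all 11 leukocyte markers lie to its left.

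Endoplasmic reticulum chaperones of class I assembly were abundant, with 8 of 8 detected and a median of 365 CPM. Canx (calnexin) was at 721 ± 16.8 CPM and Calr (calreticulin) at 622 ± 9.83, and the lowest were Bcap31 at 172 ± 3.76 and Erp44 at 74.6 ± 5.59 CPM. Of 6 peptidase genes measured all were detected, led by the endosomal aminopeptidase gene Lnpep (151 ± 12.0 CPM) and Tpp2 (141 ± 0.618), with Lap3 (61.5 ± 0.379) and Thop1 (39.7 ± 0.0544) lowest.

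Endosomal proteases that class II presentation uses were present apart from the one most tied to antigen-presenting cells. Of 5 genes measured 4 were detected, with Ctsd at 635 ± 7.71 and Ctsb at 618 ± 6.65 CPM highest and Lgmn at 23.2 ± 0.796 CPM low. Ctss, the cathepsin S gene, had no count. Among genes of MHC turnover 9 of 10 were detected, led by Sec61a1 (176 ± 8.96 CPM) and Susd6 (173 ± 8.71 CPM). March9 was at 25.3 ± 1.37 CPM, and March1, the ubiquitin ligase gene that removes class II from the surface, at 0.329 ± 0.0901 CPM.

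MHC-like genes outside the H2 names were detected in part, and the share over all genes in the table was 37.7%. Of 7 measured 3 were detected: Mr1, which presents vitamin B metabolites, at 19.5 ± 0.115 CPM, the iron regulator Hfe at 1.74 ± 0.0816 and Mill2 at 1.72 ± 0.265 CPM. Mill1 and Azgp1 had no count. Among 5 genes of ligands of the activating receptor NKG2D, Ulbp1 alone was detected, at 88.1 and 88.3 CPM. Per kilobase Ulbp1 was at 13.1 ± 0.0138 CPM, below H2-K1 and H2-D1. H60b was at 0.661 ± 0.0174 CPM, and H60c, Raet1d and Raet1e had no count. Raet1d shared 55.8% of its windows and Raet1e 44.7% with other genes, mostly each other, so reads matching both may not have been counted. The reference genome is not that of BALB/c, and the part of strain differences in these missing counts was not tested. Of 8 ligand genes listed, 5 were in the table, and the rest were not measured.

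The markers of the labelled cell type were present and those of leukocytes were at or near 0. All 7 mammary epithelial markers were detected, with Elf5 (275 ± 2.74 CPM) and Tfap2c (663 ± 17.7) lowest and Epcam (898 ± 4.77) and Krt18 (1217 ± 15.2) highest. None of 11 leukocyte markers was detected. Their summed level was 1.32 CPM in replicate 1 and 1.33 CPM in replicate 2, with Batf3 (24 and 20 counts) and Csf1r (18 and 15) highest and Ptprc, Adgre1, Tyrobp and Cd3e without a count. These values stand beside the 9 and 10 counts of Cd74.

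The letters of the interferon, NF-kB and X1 motifs were settled after these promoters were seen, so the members' counts below describe the sequences and are no evidence that a motif marks them. A promoter window (250 bases before to 50 after the start) was matched for 35 of the 44 members, 14 of them detected. The enhancer A site GGGATTCCC was in 0.353% of all 32851 windows and in 4 members, 3 of them detected: H2-K1, H2-D1, H2-Q6 and H2-Q7. The class I interferon element GAANNGAAA was in 7.52% of windows and in 8 members, 5 of them detected: H2-K1, H2-D1, H2-Q4, H2-Q6, H2-Q7, H2-Q10, H2-M2 and H2-M3. H2-Q7 carries both and had 3 and 4 counts, against 51 and 37 for H2-Q6 with the same pair. H2-Q7 shares 26.4% of its windows and H2-Q6 32% with other genes, and the part of misplaced reads in these counts was not tested.

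The general interferon element GAAANNGAA was in 8.56% of windows and in B2m, Erap1, H2-T22 and H2-T23, all detected. The X1 core AACNGATG was in 2.32% of windows and in H2-DMb1, H2-DMb2, H2-Eb1, H2-Eb2 and H2-M10.4, none of which had a count. The X2 site TGACG was in 20.8% of windows and 14 members, 6 of them detected, and the Y box ATTGG in 37.4% and 31 members, 12 of them detected. Related genes share their promoters by descent, so these counts are not independent. A match is a run of letters and not a bound site. Likewise, a window without the X1 letters may still hold an X1 box spelled otherwise.

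The 2 libraries agreed closely on these genes. Of the 20 members kept by the expression filter, 1 was called different between the libraries by an exact two-sided binomial test with Benjamini-Hochberg adjustment over all 13336 genes kept, against 8.13% of all genes. It was H2-T23, higher in replicate 2 by 0.18 on the log2 scale (95% exact interval 0.06 to 0.31), with an adjusted p of 0.044. In the binomial test the call was lost with DESeq2 size factors (adjusted p = 0.0534, with 8.62% of all genes called), with no filter (0.0592, with 5.31% called) and with total counts (0.0691, with 9.71% called). The exact test of edgeR gave an adjusted p of 0.869, with 0.142% of all genes called. Its dispersion was estimated from these same 2 libraries taken as 1 group. The difference under test thus also set the dispersion, and this result is no check of the call. With total counts Tapbp was called instead, lower in replicate 2 by 0.09 on the log2 scale (binomial adjusted p = 0.029). The binomial test compares these libraries against counting error only, and the differences may be technical.

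**Figure D5:**
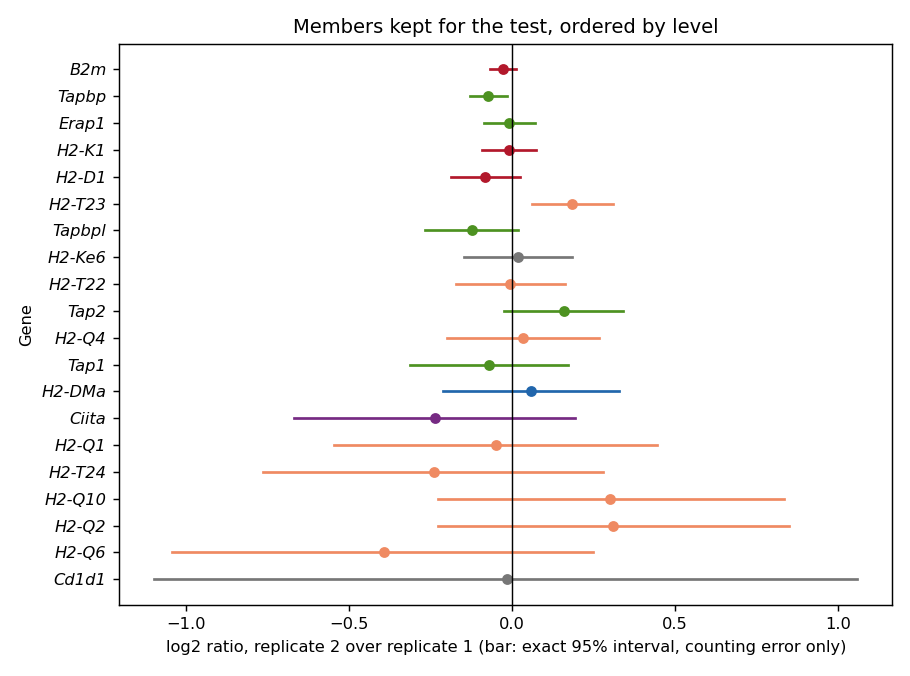
Log2 ratio of replicate 2 to replicate 1 for the 20 members kept for the test, ordered by level from B2m at the top to Cd1d1 at the bottom, with bars for the exact 95% interval of counting error. The interval narrows with level, from -1.10 to 1.06 for Cd1d1 to -0.07 to 0.01 for B2m, and those of H2-T23 and Tapbp exclude 0.

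The median log2 ratio of the 20 members was -0.01, against -0.002 over all genes kept. The widest difference in size was that of H2-Q6 (-0.39), whose interval of -1.04 to 0.25 includes 0. The counts of the low Q genes cannot show differences smaller than such intervals.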

How the data were processed

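RNA of 2 TUBO libraries was column-purified with DNase treatment and made into stranded mRNA libraries, per the labels' protocols. The authors deposited raw counts for each gene symbol. Per the submitters' processing notes the tools were STAR 2.7.9a, featureCounts, FastQC 0.11.9, Cell Ranger 3.0.0 and R 4.1.1, listed without their roles, and the genome was mm10. The annotation used, the strand setting and the treatment of multi-mapping reads are not stated in the labels, so reads of similar or overlapping genes may have been lost, split or misplaced.

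CPM were computed with TMM factors (edgeR 4.0.16, R 4.3.3). Exon lengths, coordinates and transcripts came from GENCODE M21 (GRCm38), where 98.1% of symbols had a single match, and promoters from RefSeq. Each 50-base transcript window was looked up in transcripts of all other genes. Genes kept by filterByExpr were tested between libraries by an exact binomial test. It was also run on simulated data whose only noise was counting noise. As the test assumes that noise, the run cannot show its error rate on these libraries. Intervals and floors (3 counts) cover counting error only.

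The members, lists and motifs were chosen with earlier results of these data known. The letters of the interferon, NF-kB and X1 motifs were shortened, and the class I interferon form added, after the promoter sequences were seen. Named were all detected members, the class I loading, class II and transactivator genes, all reported genes of the immunoproteasome, interferon gamma and enhanceosome lists, and the 2 highest and 2 lowest of other lists. A listed gene of the interferon gamma axis and a leukocyte marker are not reported here and were left out of the counts of their lists. Other names were chosen after their values were seen. Alternatives covered scaling (total counts, DESeq2 1.42.0 size factors), detection minimums, the filter, pseudocount, gene length (for ratios added after seeing the data), the test and each library left out.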

Additional observations from a re-analysis of the deposited data

How the results depend on the processing

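The number of detected members was 19 with TMM, total counts or DESeq2 size factors, 19 at a minimum of 0.5 CPM and 19 in either library alone. It was 13 at 5 CPM, 21 at 10 counts and 18 without H2-Ke6, an alternative added after seeing the data. The median log2 difference between classical class I and class II genes was 5.77, but 9.07 at a pseudocount of 0.1 CPM and 3.56 at 5 CPM, since the class II median is 0. It was 5.75 to 5.80 with either library left out. The call between libraries (1 member) fell to 0 with DESeq2 size factors, 0 with no filter and 0 with edgeR's exact test, with 2, 2 and 1 members at an unadjusted p under 0.05, and was 1 with total counts, another gene. The dispersion in edgeR's test came from the difference between the same 2 libraries, so that test cannot check the call. The cause was not tested.

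Leaving out a library moved no level of a detected member by more than 13.5%, and scaling moved no mean level by more than 0.0738%. The scaling factors balance between the 2 libraries, for TMM 1.0054 in replicate 1 and 0.99463 in replicate 2. Their effects therefore nearly cancel in a mean, and the small change is no check of scaling within a library. Taking the longest transcript raised the level per kilobase by over 1.5 times for 4 of 19 genes (H2-K1, H2-DMa, Ciita and H2-Q2), at most 1.73 times (H2-Q2), and unique sequence for 2 (H2-T22 and H2-Ke6), at most 3.39 times (H2-Ke6). No paired analysis was possible because the series has 1 group. Depth limits the low Q genes, Ciita, Nlrc5 and Cd74, which rest on 3 (H2-Q7) to 104 (Ciita) counts a library.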
